A study of Mus musculus with 2 samples.

Results

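The skeletal muscle contractile genes described here are 10 genes, most of them of the fast-twitch fibre: Ckm, Pvalb, Casq1, Acta1, Tnnt3, Myh1, Myh2, Myh4, Mylpf and Actn3. Ckm and Acta1 are not particular to fast fibres. They were taken from a list of symbols drawn up with earlier results of these data known, and all 10 were found among the 19122 genes that carry 1 gene symbol on the array, each as 1 transcript cluster, a set of probes that the array reads out as a single value. The irradiated sample was lung from male C57BL/6 mice, an inbred laboratory strain, whose chest had been exposed to a single dose of gamma rays at 0.81 Gy/min when they were 7 weeks old and whose lungs were taken after 25 weeks. The labels describe these mice as overexpressing alpha-smooth muscle actin by western blot. The comparison sample was lung from nonirradiated male C57BL/6 mice with the same time label. Each group was measured on 1 array from 300 ng of total RNA, and the total dose and the number of mice behind each array are not given in the sources used here. Because no group was measured again, the values carry no replicate error and were not tested, and the number of arrays limits their precision.

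Skeletal muscle contracts when myosin heavy chains of the thick filament pull on actin of the thin filament. Troponin on the thin filament responds to calcium that the sarcoplasmic reticulum releases, and creatine kinase refills the ATP that is used. Most of these proteins are encoded by small gene families with separate members for fast skeletal fibres, slow skeletal fibres and heart. The lung itself holds no skeletal muscle, but in mice heart muscle cells extend along the pulmonary veins into the lung, and the diaphragm, chest wall and oesophagus are skeletal muscle that adjoins it. The comparison therefore asks whether striated muscle RNA in these lung samples has the skeletal or the heart pattern.

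As a check of the tissue label, all 10 lung epithelial markers lay above the median of genes in both arrays, with values of 9.08 to 13.42 in irradiated and 9.63 to 13.42 in nonirradiated lung (RMA signal on the log2 scale, the unit of every level below). Sftpc, surfactant protein C, read 13.39 in irradiated and 13.42 in nonirradiated lung, and Scgb1a1, which club cells of the airway secrete, read 13.42 in irradiated and 13.41 in nonirradiated lung. The median of genes with 1 symbol was 7.26 in the irradiated and 7.27 in the nonirradiated array. Control rows that target introns had a median of 6.58 in the irradiated and 6.33 in the nonirradiated array and serve here as a low-signal landmark. The differences of 18 bacterial hybridisation control rows between the arrays had an SD of 0.14, which is used below as a scale. Other rows spread more, with an SD of 0.56 for intron control rows and 0.26 for all genes. A difference beyond 0.14 is therefore not by itself beyond technical variation.

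The 10 genes were mostly dim and nearly the same in both arrays. Their levels ran from 4.96 to 7.69 in irradiated lung and from 4.94 to 7.31 in nonirradiated lung. Only Tnnt3 lay above the median of genes in both arrays, Ckm lay above it in irradiated lung alone, and 8 genes lay below it in both. In irradiated lung 5 of the 10 read below the median of intron controls, and in nonirradiated lung 4 did. The gene that changed side was Myh2, at 6.50 in irradiated and 6.51 in nonirradiated lung. The control median itself was 6.58 in irradiated and 6.33 in nonirradiated lung. Of the 10 only Ckm differed at least 1.5-fold, against 3.27% of all 19122 genes, of which 2.07% were at least 1.5-fold higher and 1.2% at least 1.5-fold lower in irradiated lung. With 1 gene past the limit, no shift of the group can be read from this count. The median difference of the 10 genes, irradiated minus nonirradiated, was 0.03 on the log2 scale, against -0.02 over all genes. By sign alone 7 of the 10 were higher in irradiated lung, against 45.3% of all genes. But 3 of those differences were so small that centring each array on the median of all its non-control rows left 4 higher. That median was 6.87 in the irradiated and 6.83 in the nonirradiated array. The median of genes with 1 symbol, 7.26 and 7.27, was not used for centring.

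**Figure D1:**
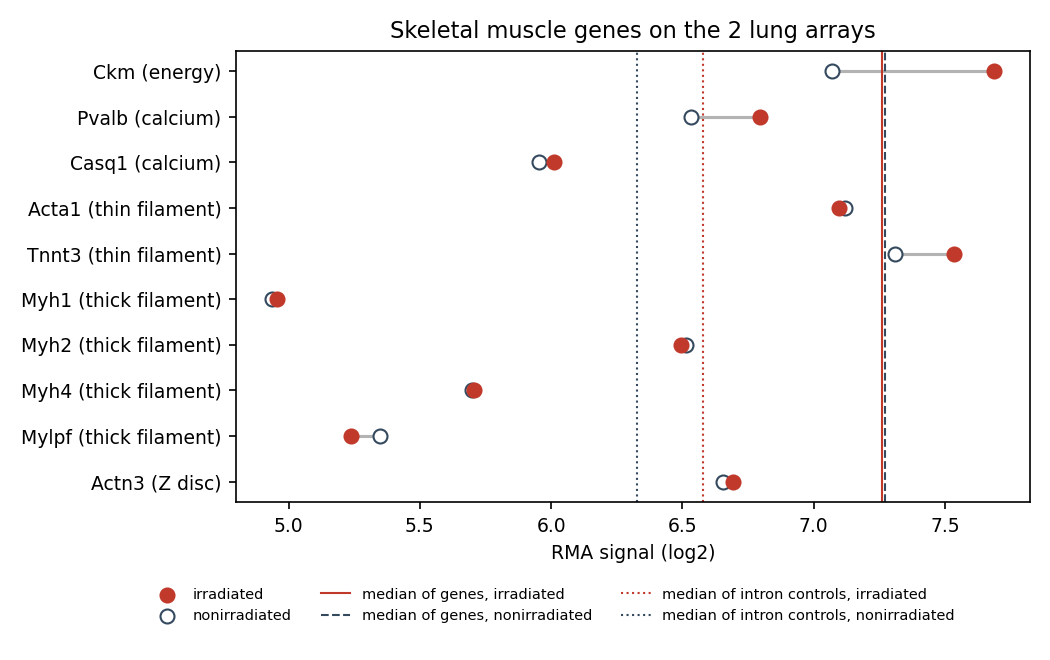
Levels of the 10 skeletal muscle genes, ordered by role from top to bottom, as RMA signal on the log2 scale (horizontal axis). Filled points are irradiated lung, open points nonirradiated lung, and each stands for 1 array, so there are no error bars. Vertical lines mark the median of genes with 1 symbol (7.26 irradiated, 7.27 nonirradiated) and of intron control rows (6.58 irradiated, 6.33 nonirradiated). The points of Ckm, Pvalb and Tnnt3 separate visibly, and those of the other 7 genes lie within 0.11 of each other.

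Ckm, the cytosolic muscle creatine kinase, which regenerates ATP from phosphocreatine in skeletal muscle and heart alike, was the exception. Its cluster of 20 probes lies at chr7:19411094-19421583 on the plus strand (GRCm38). Ckm read 7.69 in irradiated and 7.07 in nonirradiated lung, a difference of 0.61 or 1.53-fold. This placed it at rank 346 of 19122 genes by difference. Among the 1465 other genes within 0.25 of its mean level, 37 (2.53%) differed upward by at least as much, and the differences of those genes had an SD of 0.28. Ckm lay just inside the 1.5-fold limit. After centring of the arrays on the median of non-control rows its difference of 0.57 was just outside it. Ckmt2, the mitochondrial creatine kinase of heart and skeletal muscle, read 6.78 in irradiated and 6.20 in nonirradiated lung, a difference of 0.57.

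Calcium handling was represented by Pvalb and Casq1. Pvalb, parvalbumin, the calcium buffer of fast fibres that is also made by some neurons, read 6.79 in irradiated and 6.53 in nonirradiated lung (chr15:78191114-78206400, minus strand). The difference of 0.26 was larger than the SD of the hybridisation controls, yet 12.9% of the 1772 genes of like brightness differed upward by at least as much. Casq1, the calsequestrin that stores calcium in skeletal muscle, read 6.01 in irradiated and 5.95 in nonirradiated lung (chr1:172209894-172219895, minus strand). That difference of 0.06 was within the spread of the controls.

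On the thin filament, Acta1, the alpha-actin of skeletal muscle, which is also made at a low level in heart, read 7.09 in irradiated and 7.12 in nonirradiated lung, a difference of -0.02 (chr8:123891767-123894751, minus strand). Tnnt3, the troponin T of fast fibres, which anchors the troponin complex, read 7.53 in irradiated and 7.31 in nonirradiated lung (chr7:142498836-142516009, plus strand). Its difference of 0.22 exceeded the SD of the controls, and 15.4% of 1430 genes of like brightness differed upward by at least as much. The skeletal actin gene thus had nearly equal values in both arrays while fast troponin T was slightly higher in irradiated lung.

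The thick filament gave no difference in any of its 4 genes beyond the spread of the controls. Myh2, the myosin heavy chain of fast oxidative fibres, read 6.50 in irradiated and 6.51 in nonirradiated lung. Myh1, the heavy chain of the intermediate fast fibres, read 4.96 in irradiated and 4.94 in nonirradiated lung. Myh4, the heavy chain of the fastest fibres, read 5.71 in irradiated and 5.70 in nonirradiated lung. These heavy chains are the genes that define fast fibres, and their differences were -0.02 for Myh2, 0.02 for Myh1 and 0.01 for Myh4. Mylpf, the regulatory light chain of fast fibres, read 5.24 in irradiated and 5.35 in nonirradiated lung (chr7:127211608-127214298, plus strand), and its difference of -0.11 was the lowest of the 10. Myh1, Myh4 and Mylpf read below the median of intron controls in both arrays. At the Z disc, which anchors the thin filaments, Actn3, the alpha-actinin of fast fibres, read 6.69 in irradiated and 6.65 in nonirradiated lung (chr19:4861223-4877909, minus strand), a difference of 0.04.

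The 3 fast heavy chains stand next to each other on the plus strand of chromosome 11, in the order Myh2 (chr11:67171027-67197517), Myh1 (chr11:67200052-67224576) and Myh4 (chr11:67237812-67260446). The embryonic chain Myh3 precedes them, and the perinatal chain Myh8 and the extraocular chain Myh13 follow. Myh3 read 4.61 in irradiated and 4.77 in nonirradiated lung, and Myh13 read 5.63 in irradiated and 5.81 in nonirradiated lung. Myh8 has 2 clusters: that on the plus strand read 6.13 in irradiated and 5.73 in nonirradiated lung, and that on the minus strand, opposite to the gene, read 6.09 in both. Apart from the plus-strand cluster of Myh8, with a difference of 0.40, no cluster named for these genes was higher in irradiated lung by more than 0.02. The heart chains Myh6 and Myh7 lie side by side on the minus strand of chromosome 14, and there the values parted. Myh6, the main heavy chain of the adult mouse heart, read 9.40 in irradiated and 8.47 in nonirradiated lung, a difference of 0.93. Myh7, the chain of slow skeletal fibres and fetal heart, read 7.75 in irradiated and 7.93 in nonirradiated lung, a difference of -0.18.

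Skeletal and heart members of the same protein family were then set side by side by their differences. Levels were not compared between genes, because the probes of different clusters do not respond alike. Of 17 pairs with both genes measured, the heart form had the higher difference in 14, by a median of 0.62 over all 17 (heart minus skeletal). In the other 3, all with Myh7, the skeletal form had the higher difference, and for scale the differences of all genes had an SD of 0.26. The pairs are not independent, since Myh6, Myh7 and Mylpf each stand in several and each side holds 13 genes. In the pair of Myl2 with Mylpf, counted in the 14, the gap was 0.03 and both genes were lower in irradiated lung. Among the 13 skeletal genes in these pairs none was at least 1.5-fold higher in irradiated lung, and among the 13 heart genes 8 were. Over all genes 2.07% were. Of the genes counted as heart forms, Actn2, Tnnc1, Myh7 and Myl2 are shared with skeletal muscle and Cacna1c with smooth muscle. The contractile genes Ckm, at 0.61, and Myl1, at 0.71, passed the limit but stand in none of the 17 pairs. Acta1 differed by -0.02, against 0.84 for Actc1, the cardiac actin, which read 10.62 in irradiated and 9.78 in nonirradiated lung. Casq1 differed by 0.06, against 0.96 for Casq2, the cardiac calsequestrin. Tnnt3 differed by 0.22, against 0.61 for Tnnt2, the cardiac troponin T. Actn3 differed by 0.04, against 0.74 for Actn2, which heart and skeletal muscle share. Mylpf differed by -0.11, against 0.81 for Myl7, the light chain of the atria.

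Several families outside the 10 genes had the higher difference in the heart form, but not all. The troponin I of fast fibres, Tnni2, differed by 0.11, against 0.73 for the cardiac Tnni3. The myosin-binding protein of fast fibres, Mybpc2, differed by -0.14, against 0.54 for the cardiac Mybpc3. The calcium release channel of skeletal muscle, Ryr1, differed by 0.17, against 0.70 for the cardiac Ryr2. Smaller gaps separated Tnnc2, the fast troponin C, at 0.05 from Tnnc1, the troponin C of heart and slow fibres, at 0.35, and the skeletal calcium channel Cacna1s at -0.02 from Cacna1c, the channel of heart and smooth muscle, at 0.34. Among the 17 pairs those with Myh7 ran the other way, since its difference of -0.18 lay below those of Myh1, Myh2 and Myh4. The alkali light chains, which were not among the pairs, also ran the other way: Myl1, of fast fibres, differed by 0.71, against 0.02 for Myl3, of ventricle and slow fibres. The pair of Mylpf with Myl2, the light chain of ventricle and slow fibres, was close: Myl2 read 6.50 in irradiated and 6.58 in nonirradiated lung, a difference of -0.08.

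**Figure D2:**
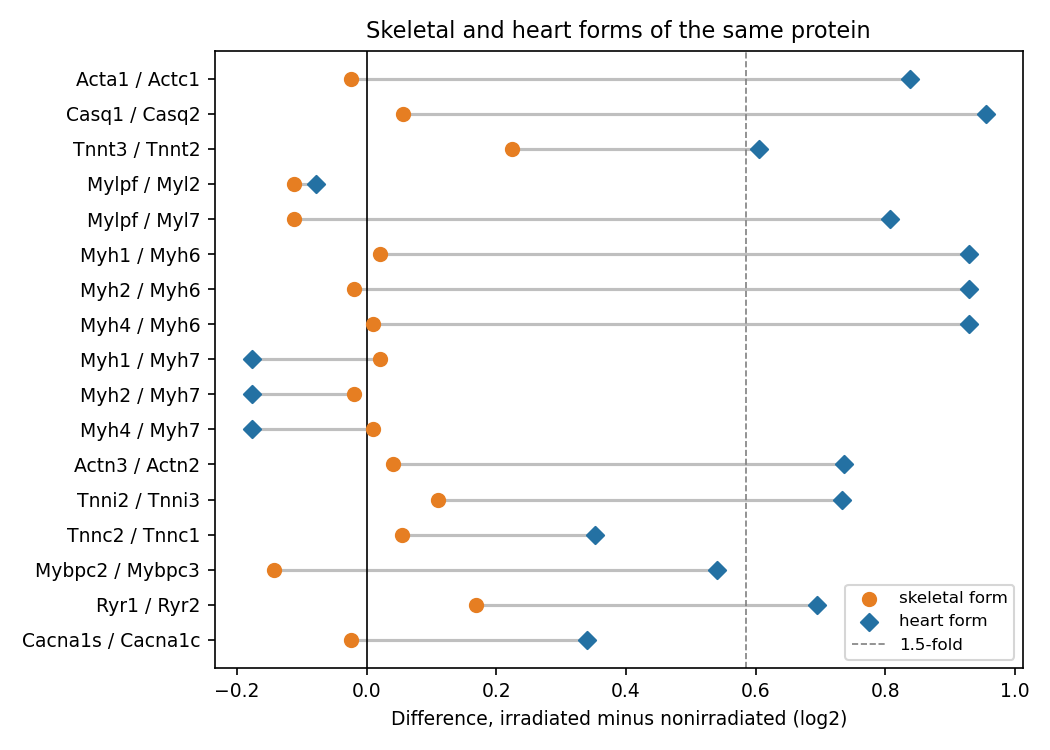
Differences of skeletal and heart forms within 17 pairs of related genes, irradiated minus nonirradiated on the log2 scale (horizontal axis). Circles are the skeletal form, diamonds the heart form, each from 1 array per group, and some genes appear in several pairs. No circle reaches the dashed 1.5-fold line, whereas 8 of the 13 heart genes lie beyond it, and Myh7 and Myl2 are the heart forms below 0. Ckm and Myl1 stand in no pair and are not drawn.

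The actin pair is shown by its promoters, since the proteins are closely related and the array differences of the genes were not, and the Ckm promoter is shown because Ckm was the member that differed. Each sequence is the 250 bases before the RefSeq start of the gene (RefSeq, GRCm38.p6). Capitals mark the E-box (CANNTG), the letters bound by the MyoD family of muscle regulators, and the CArG box, bound by serum response factor (CC, then A or T at each of 6 positions, then GG). Both motifs read the same on either strand, and no E-box overlapped a CArG box in these windows.
Ckm, chr7:19410844-19411093, plus strand: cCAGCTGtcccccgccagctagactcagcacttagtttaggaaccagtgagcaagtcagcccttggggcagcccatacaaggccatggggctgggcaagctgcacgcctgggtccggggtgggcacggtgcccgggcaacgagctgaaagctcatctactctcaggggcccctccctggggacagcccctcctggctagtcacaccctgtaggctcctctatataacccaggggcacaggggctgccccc
Acta1, chr8:123894776-123895025, minus strand: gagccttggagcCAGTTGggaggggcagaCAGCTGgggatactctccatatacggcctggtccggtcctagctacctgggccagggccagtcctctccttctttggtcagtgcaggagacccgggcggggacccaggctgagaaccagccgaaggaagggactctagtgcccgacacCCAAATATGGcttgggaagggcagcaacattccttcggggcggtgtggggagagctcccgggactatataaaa
Actc1, chr2:114052876-114053125, minus strand: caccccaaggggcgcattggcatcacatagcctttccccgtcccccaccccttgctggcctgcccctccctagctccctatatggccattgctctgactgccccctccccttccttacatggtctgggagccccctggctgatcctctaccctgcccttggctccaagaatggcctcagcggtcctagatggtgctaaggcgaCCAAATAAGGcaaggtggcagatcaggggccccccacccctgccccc
Acta1 held 2 E-boxes and a CArG box that begins 73 bases before the start. Actc1 held a CArG box that begins 47 bases before the start and no E-box in this window. Ckm held 1 E-box, which begins 249 bases before the start, and no CArG box. RefSeq promoters were matched for 8 of the 10 members, and 6 of their 9 promoters held an E-box, a share close to the 66.2% of 32851 mouse promoters of the same length. A CArG box was found in 2 of the 9, those of Acta1 and Myh4, against 1.47% of all promoters. These matches describe letters and are not evidence of binding.

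Other skeletal muscle genes, in 4 lists chosen by function, gave median differences near that of the 10. Their levels were not all alike: 4 of 6 metabolic enzymes lay above the median of genes in both arrays, against 1 of the 10. Of 45 listed genes 41 were matched by symbol, with a median difference of 0.06. By sign 26 of the 41 were higher in irradiated lung, against 45.3% of all genes. At least 1.5-fold higher were 2 (4.88%), against 2.07% of all genes. Among 15 further contractile genes the median was 0.05. The exception was Myl1, the alkali light chain of fast fibres, which read 8.83 in irradiated and 8.12 in nonirradiated lung, a difference of 0.71. Mybpc1, the myosin-binding protein of slow fibres, differed by 0.41 from dim values of 5.83 in irradiated and 5.41 in nonirradiated lung. Klhl40 and Klhl41, which stabilise thin filaments in skeletal muscle, went opposite ways at -0.33 and 0.28. The slow-fibre troponins Tnnt1 and Tnni1 differed by 0.06 and 0.04.

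The 14 genes of excitation and the nerve-muscle junction had a median difference of 0.08 and none at 1.5-fold. The widest differences were those of Chrne, the adult subunit of the muscle acetylcholine receptor, at 0.32 and of Atp2a1, the calcium pump of fast fibres, at 0.32, followed by the chloride channel Clcn1 at 0.22 and the calcium channel subunit Cacng1 at 0.21. The 6 regulators of muscle development had a median of -0.0030, with Myod1 at 0.20, Myf6 at 0.16, Myog at -0.10 and Pax7, the marker of muscle stem cells, at -0.21. All 6 lay below the median of genes in both arrays. Among 6 enzymes of muscle glycolysis and nucleotide metabolism the median was -0.02. There Pgam2, the phosphoglycerate mutase of heart and skeletal muscle, read 7.20 in irradiated and 6.56 in nonirradiated lung, a difference of 0.64. Pygm, the muscle glycogen phosphorylase, differed by 0.35, Pfkm, the muscle phosphofructokinase, by -0.12 and Phka1, a subunit of phosphorylase kinase, by -0.26.

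Genes that heart and skeletal muscle share, and genes listed as heart, smooth muscle and brown fat, mostly had higher values in irradiated lung beside these. Over all 19122 genes 2.07% were at least 1.5-fold higher there. Among 23 genes of both striated muscles the median difference was 0.33, with levels of 7.61 in irradiated and 7.10 in nonirradiated lung at the list median, and 7 were at least 1.5-fold higher. Titin (Ttn) differed by 1.05, myoglobin (Mb) by 0.82 and the cytochrome oxidase subunit Cox7a1 by 0.77. Among 19 heart genes the median difference was 0.70, at list medians of 8.32 in irradiated and 7.84 in nonirradiated lung, and 11 were at least 1.5-fold higher. The highest were Nppa, the atrial natriuretic peptide, at 1.93 and Pln, the regulator of the cardiac calcium pump, at 1.10. The 3 heart genes that were lower in irradiated lung were Nkx2-5 at -0.08, Bmp10 at -0.07 and Myl2 at -0.08. Among 10 smooth muscle genes the median difference was 0.54 and 5 were at least 1.5-fold higher, with the calponin Cnn1 at 1.31, the actin Actg2 at 0.83, the myosin heavy chain Myh11 at 0.70 and the actin Acta2 at 0.65. Acta2 encodes the protein by which the irradiated mice were described, so its direction is not independent of the label. Among 9 genes listed as brown fat the median was 1.24 and 6 were at least 1.5-fold higher. The highest were the uncoupling protein Ucp1 at 3.33 and the lipid droplet protein Cidea at 1.65. Next came the fatty acid carrier Fabp4 at 1.49 and the cytochrome oxidase subunit Cox8b at 1.42. Fabp4, Adipoq and Plin1 are also made in white fat, so the list is not specific to brown fat. Adrb3 at 0.29, Dio2 at 0.22 and Elovl3 at -0.11 fell short of the limit. The 10 lung epithelial genes had a median of -0.21, with Foxj1, the regulator of ciliated cells, at -0.55, surfactant protein D (Sftpd) at -0.45, the lung transcription factor Nkx2-1 at -0.31 and Ager, of alveolar type 1 cells, at -0.28. The part of any of these tissues in the higher values of Ckm, Tnnt3 and Pvalb was not tested, and in whole lung RNA more cells of a type and more RNA per cell cannot be told apart.

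**Figure D3:**
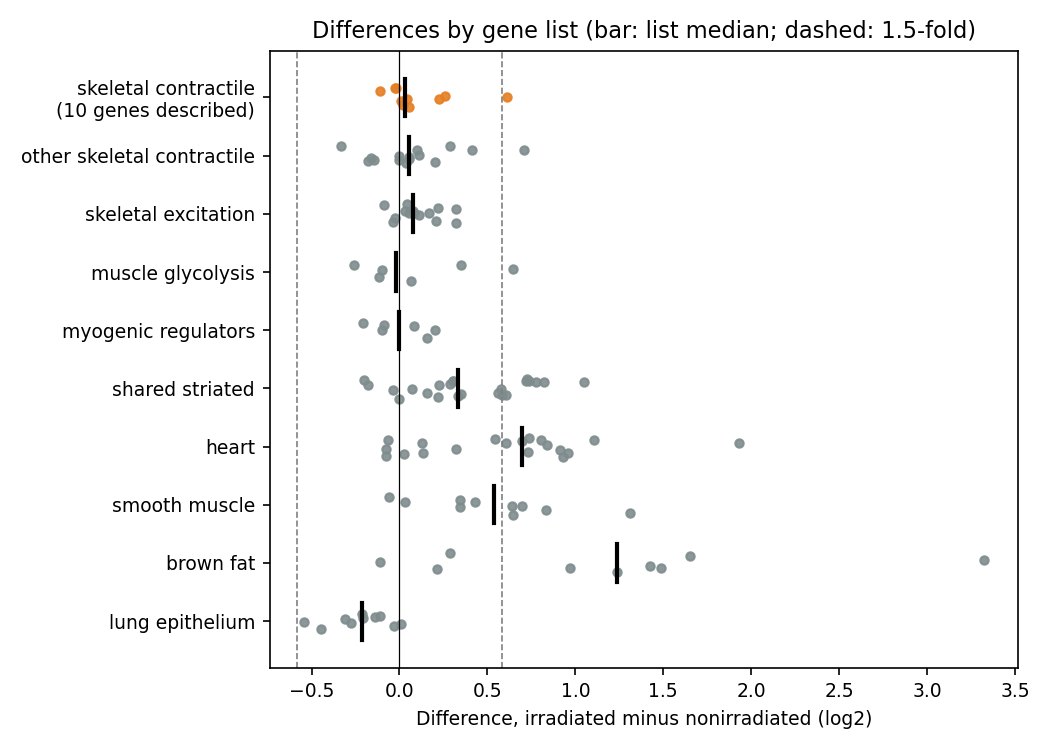
Differences of single genes by list, irradiated minus nonirradiated on the log2 scale (horizontal axis), with the 10 skeletal contractile genes in orange at the top. Each point is 1 gene measured on 1 array per group, bars are list medians and dashed lines mark 1.5-fold in either direction. The skeletal lists are centred between -0.02 and 0.08, the shared striated list at 0.33, heart at 0.70, smooth muscle at 0.54 and brown fat at 1.24.

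**Figure D4:**
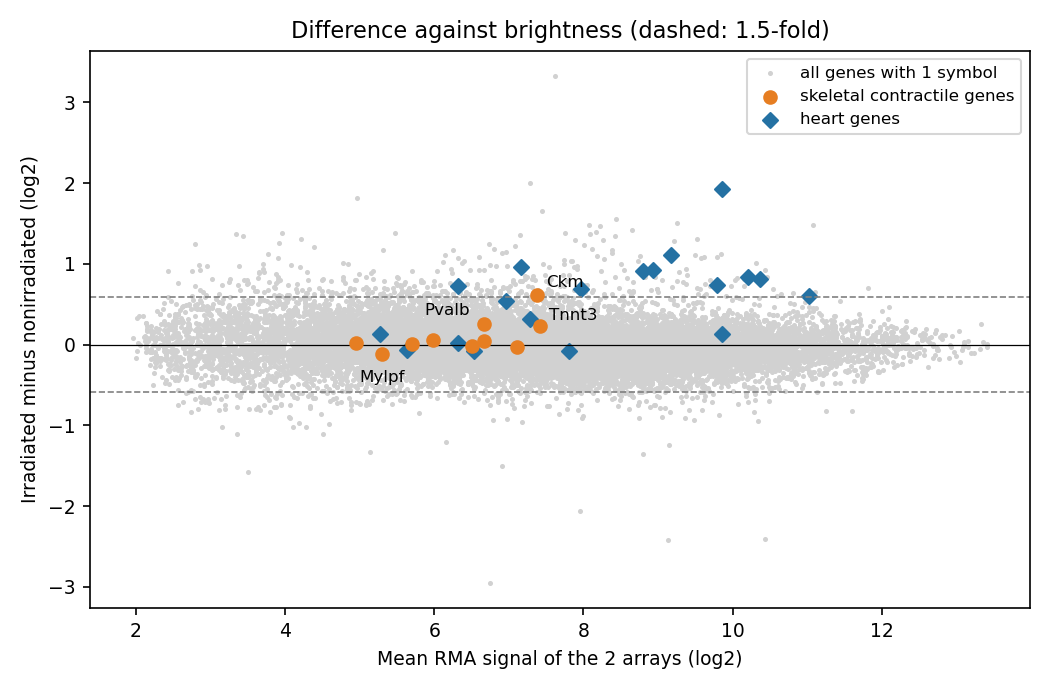
Difference between the arrays (irradiated minus nonirradiated, log2) against the mean level of both arrays (log2) for all 19122 genes in grey, the 10 skeletal contractile genes as orange circles and 19 heart genes as blue diamonds, with dashed lines at 1.5-fold. Ckm is the only skeletal gene beyond the line, at 0.61.

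The plot of differences against brightness shows at which levels the skeletal and the heart genes lie. Of the 10 skeletal genes 1 lay above the median of genes in both arrays, against 11 of 19 heart genes. Whether brightness has a part in the small differences of the skeletal genes was not tested. The differences of genes of like brightness had an SD of 0.30 around Myh1 and 0.28 around Mylpf, both dim, and of 0.28 around Ckm. Around the other members below the median of genes in both arrays it was lower, from 0.24 around Casq1 to 0.26 around Acta1. Control rows did not share a direction, and their levels were not matched to those of the skeletal genes. The 5331 intron rows differed by a median of 0.27. The 23 antigenomic background rows, which match no mouse gene, differed by a median of -0.21. The median of the 10 skeletal genes was 0.03. Some dim heart genes differed little, among them Myl3, a light chain of ventricle and slow fibres, which read 6.34 in irradiated and 6.31 in nonirradiated lung. Other dim heart genes did differ, among them Nppb, the B-type natriuretic peptide, which read 6.68 in irradiated and 5.95 in nonirradiated lung.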

How the data were processed

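Total RNA of mouse lung was labelled with biotin and hybridised to 1 Affymetrix whole-transcript array per group, per the labels' protocols. The deposited signals are log2 values. Per the submitters' processing notes, the authors ran RMA, and the software was Affymetrix Expression Console 1.3.1. RMA, as usually run, brings the arrays onto a common distribution, so a shift of most genes cannot be seen. The authors' workbook adds a log2 ratio, which equalled irradiated minus nonirradiated within 0.0001 in every row, and an absolute fold, a ratio of at least 1. The workbook's signals and the deposited value table also matched within that tolerance.

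From 41345 rows, 6980 array controls were set aside. The 20339 rows with 1 symbol were averaged per symbol with pandas 2.3.3, giving 19122 genes. A gene was counted as different at 1.5-fold. With 1 array in each group, no p-value was calculated. The counting was tested on simulated data. Groups were taken from the sample titles.

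The members and lists were chosen with earlier results of these data known. The named genes were the 10 members, both genes of each pair, up to 4 genes with the largest absolute difference per list, Sftpc and Scgb1a1. Ckmt2, Myh3, Myh8, Myh13, Tnnt1, Tnni1, Myl3, Nppb, Myot, Xirp1 and the microRNA rows fall outside this rule and were named after their values were seen. With 2 arrays no gene of like pattern can be named. Of 19 pairs 17 were measured by symbol. Alternatives were array centring on the median of non-control rows, removal of a lowess trend (span 0.3, statsmodels) and the brightest row per gene. Others were removal of cross-hybridising rows, the value table, brightness limits, other folds and leaving out Ckm or both Ckm and Acta1.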

Additional observations from a re-analysis of the deposited data

How the results depend on the processing

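No paired analysis was possible because each group has 1 array. Values were called stable when they moved by less than 0.14, the SD of the hybridisation controls, and counts when they stayed within 1.5 times. All 50 recomputed differences of the 10 genes and all 85 recomputed pair contrasts were stable by this measure, and the difference of Ckm ran from 0.57 to 0.65. Each member has 1 cluster that is not annotated as cross-hybridising, so the choice of row and the removal of cross-hybridising rows leave its value unchanged by construction. The value table matched the workbook and so could move nothing. Centring shifts every difference by the same amount, which cancels in a pair contrast. Only removal of the lowess trend changed any pair contrast, so most of this stability was fixed in advance. With the arrays centred on their medians of non-control rows, 4 of the 10 genes were higher and 0 were at least 1.5-fold different. Centring on the median of genes with 1 symbol was not run. At a 2-fold limit the count was also 0. With all non-control rows behind the array median, an alternative added after the data were seen, 3 of the 10 lay above it in both arrays. The median of the 10 genes lay between -0.01 and 0.03 in all alternatives except when dim members were dropped, where Ckm and Tnnt3 alone were left and it was 0.42. Leaving out dim genes gave a median of 0.38 for the other contractile genes, 0.57 for the shared striated genes and 1.42 for brown fat. A gene that passes that limit in the irradiated array alone had to be higher there, as Ckm did. The number of arrays limits every value.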

Other observations

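The array also holds clusters for precursors of muscle microRNAs, named in the deposited annotation. mir-206, whose mature form is made in skeletal muscle, read 2.59 in irradiated and 2.18 in nonirradiated lung. mir-133b, which lies beside it on chromosome 1, read 5.62 in irradiated and 5.73 in nonirradiated lung. mir-208, which lies within the heart myosin gene Myh6 on chromosome 14, read 3.79 in irradiated and 3.49 in nonirradiated lung, and mir-499 read 4.74 in irradiated and 5.08 in nonirradiated lung. All 4 lay below the medians of intron controls in both arrays. The differences were 0.42 for mir-206, -0.11 for mir-133b, 0.30 for mir-208 and -0.34 for mir-499, against 0.93 for Myh6. The mature sequences of the skeletal and the heart microRNA (RefSeq, GRCm38.p6) are shown with the seed, bases 2 to 8, in capitals, and the seeds are not shared.
mmu-miR-206-3p, chr1:20679055-20679076, plus strand: uGGAAUGUaaggaagugugugg
mmu-miR-208a-3p, chr14:54949072-54949093, minus strand: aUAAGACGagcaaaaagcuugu

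Some genes had exactly the same deposited value in both arrays. This was so for 299 of 19122 genes, among them Myot, a Z disc protein of skeletal muscle, at 6.10 and Xirp1, an actin-binding protein of striated muscle, at 6.78, and for the minus-strand cluster of Myh8 at 6.09.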
